A study of Rattus norvegicus with 8 samples.

Results

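The genes described here are 10 genes of arginine and polyamine metabolism, read in peritoneal macrophages of rats injected with one of a pair of carbon nanotubes. They were chosen by symbol: Slc7a2, Ass1, Arg1, Arg2, Nos2, Oat, Odc1, Srm, Sms and Sat1. Of the 23487 genes of the count table, 9 of these 10 had a row, and 8 passed the filter on low counts that left 12124 genes for the test. Nos2 was not analysed here, and Arg2 was too low to be tested. The rats were Wistar rats of 8 weeks. The needle-like particle CNT-7 (MWCNT-XNRI-7), which gives rise to mesothelioma, was given to 4 rats (numbers 3, 5, 10 and 11), and the tangled particle CNT-T, which does not, to 4 others (1, 2, 12 and 13). Both particles are multi-walled carbon nanotubes injected into the peritoneal cavity. The macrophages of every rat were collected by cell sorting at 15 days, and each library came from 1 rat. Both groups received a particle, and untreated rats were not analysed here, so that a difference is one between the particles and not a departure from the resting state.

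Arginine is taken up through cationic amino acid carriers and is then claimed by competing enzymes. Nitric oxide synthase turns it into nitric oxide and citrulline, and arginase turns it into ornithine and urea. Ornithine goes either to the proline and glutamate branch or, through ornithine decarboxylase, to putrescine, from which spermidine and spermine are built. The choice between the arginase and the nitric oxide synthase route is a textbook feature of macrophage activation in rodents, and polyamine synthesis is known to accompany cell growth. Messenger RNA was measured here, and enzyme activity and metabolites were not.

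Depth was similar over the 8 rats, with 27195157 to 33732981 counts per rat, and 3 counts corresponded to 0.0887 to 0.109 CPM (counts relative to library size, on the usual CPM scale, with library sizes scaled by TMM factors). The correlation of log2 CPM was 0.973 to 0.988 between rats given the same particle and 0.944 to 0.968 between rats given different ones. The sorted cells carried the macrophage markers at a summed 14979 to 22192 CPM after CNT-7 and 23387 to 33654 CPM after CNT-T. This sum was thus lower in every CNT-7 rat than in every CNT-T rat. With edgeR's quasi-likelihood test, 3383 genes (27.9%) passed an adjusted p-value under 0.10, the level used for all calls below.

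Of the 8 genes tested, 3 were called, which is 37.5% beside 27.9% of all genes, a difference too small on 8 genes to set the list apart. Slc7a2 and Arg1 rose after CNT-7 (higher calls were 13.9% of all genes) and Odc1 fell (lower calls were 14%). In these 3 genes, and in none of the other 5 tested, the 4 CNT-7 rats did not overlap the 4 CNT-T rats, as was so in 24.9% of all genes. The median log2 fold change of the 8 genes was 0.11, against 0.01 over all genes tested. Fewer cells of a type and less RNA per cell cannot be told apart in such bulk libraries. The plot of each gene by rat shows the values on which the following paragraphs rest.

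**Figure D1:**
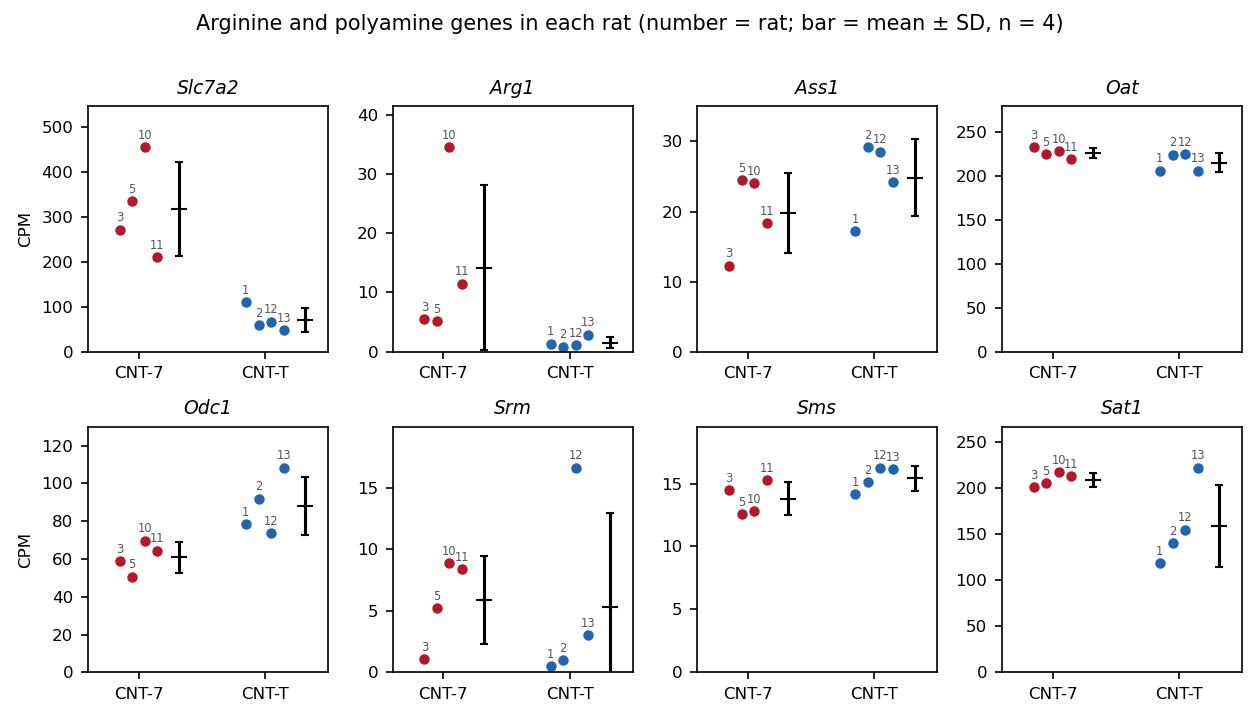
CPM (vertical axes, linear, from 0) of the 8 genes tested, by particle. Each point is 1 rat with its number, and the bar is the mean ± SD of 4 rats (the lower end of the Srm bar after CNT-T falls below 0 and is not drawn). The groups are apart in Slc7a2, Arg1 and Odc1, a single CNT-T rat reaches the CNT-7 level in Sat1, and Srm ranges from 0.522 to 16.6 CPM within the CNT-T rats.

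Slc7a2 (ENSRNOG00000011016) encodes CAT2, the cationic amino acid carrier that macrophages induce on activation. After CNT-7 it had 272, 336, 456 and 211 CPM in rats 3, 5, 10 and 11, and after CNT-T 110, 59.6, 67.1 and 47.4 CPM in rats 1, 2, 12 and 13. Every CNT-7 rat lay well above every CNT-T rat, and the gap between the groups was wider than the spread of the CNT-T rats. The means were 319 ± 105 and 71.0 ± 27.2 CPM (SD, n = 4). This is a 4.49-fold difference (95% interval 2.83 to 7.11), with a log2 fold change of 2.17 (SE 0.30) and an adjusted p-value of 0.00131 by the quasi-likelihood test of edgeR, adjusted after Benjamini-Hochberg over all genes. Among all genes tested, 1.67% had a higher log2 fold change. In the fits that left out 1 rat, Slc7a2 had log2 fold changes of 1.94 to 2.46.

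None of the other carriers tested passed the threshold. Slc7a1, which encodes the constitutive carrier CAT1, had 20.2, 15.8, 19.9 and 22.2 CPM after CNT-7 and 18.6, 25.4, 20.3 and 32.8 CPM after CNT-T. The groups overlapped, and the log2 fold change was -0.31 (95% interval -0.71 to 0.09, adjusted p = 0.256 by edgeR). Slc7a7 and Slc3a2, the light and heavy chain of an exchanger of cationic and neutral amino acids, were chosen after their values were seen and had log2 fold changes of -0.16 (adjusted p = 0.247) and 0.16 (adjusted p = 0.319). Of 9 listed genes of arginine and polyamine transport other than Slc7a2, 6 were tested. By edgeR 0 of these 6 were called, beside 27.9% of all genes, too few genes to set the carriers apart. Among them 1 (Slc7a6) had an unadjusted p under 0.05 by edgeR. DESeq2 called the same 1 gene.

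Arg1 (ENSRNOG00000013304) encodes arginase 1, which splits arginine into ornithine and urea. Its levels were 5.45, 5.16, 34.5 and 11.5 CPM after CNT-7 and 1.37, 0.857, 1.09 and 2.90 CPM after CNT-T. The groups did not overlap, but the CNT-7 rats were unequal, with rat 10 far above the other three and rats 3 and 5 close together at the bottom. The means were 14.2 ± 13.9 and 1.55 ± 0.922 CPM (SD, n = 4). The fitted difference was 9.16-fold (95% interval 3.19 to 26.4), a log2 fold change of 3.20 (SE 0.68) with an adjusted p-value of 0.00955 by edgeR. In reads, Arg1 had 166, 154, 956 and 317 counts after CNT-7 and 42, 29, 33 and 81 after CNT-T, so that no rat was near the floor of 3 counts. Without CNT-7 rat 10 the log2 fold change was 2.25 (adjusted p = 0.0088), and it reached 3.67 among the other fits that left out 1 rat. The size of the Arg1 difference thus rested in part on 1 rat, whereas its call did not: the highest adjusted p-value over these 8 fits was 0.035.

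Arg2 (ENSRNOG00000053811), which encodes the mitochondrial arginase 2, had 0, 0, 0 and 1 count after CNT-7 and 0, 0, 1 and 1 count after CNT-T. These values are all below the floor of 3 counts, and no fold change was drawn from them. Of the 2 arginase genes, therefore, only Arg1 was detectable at this depth.

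Ass1 (ENSRNOG00000008837), which encodes argininosuccinate synthase, takes the citrulline released by nitric oxide synthase back toward arginine. It had 12.3, 24.5, 24.1 and 18.3 CPM after CNT-7 and 17.2, 29.2, 28.5 and 24.2 CPM after CNT-T. The ranges overlapped over most of their length. The means were 19.8 ± 5.75 and 24.8 ± 5.5 CPM, and the log2 fold change of -0.33 (95% interval -0.84 to 0.19) had an adjusted p-value of 0.367 by edgeR. Asl, the enzyme that follows Ass1 and releases arginine, fell from 40.4 ± 2.30 to 32.7 ± 3.33 CPM (log2 fold change -0.31, SE 0.09, adjusted p = 0.0358), without overlap between the rats.

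Ornithine made by arginase can go to Oat or to Odc1. Oat (ENSRNOG00000016807), ornithine aminotransferase, opens the way to proline and glutamate. It was the most even gene of the 8, with 232, 224, 228 and 218 CPM after CNT-7 and 206, 224, 224 and 206 CPM after CNT-T. The 95% interval of its log2 fold change ran from -0.07 to 0.22 around 0.07 (adjusted p = 0.482 by edgeR), which bounds any difference to a small size. Further along the same branch Glul, glutamine synthetase, rose from 952 ± 95.6 to 1282 ± 85.8 CPM (log2 fold change 0.43, SE 0.09, adjusted p = 0.00956 by edgeR). It was the only call among the 6 genes tested there (16.7%, beside 27.9% of all genes), too few genes to set the branch apart.

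Odc1 (ENSRNOG00000005424) encodes ornithine decarboxylase, the first and rate-limiting enzyme of polyamine synthesis. It had 58.7, 50.7, 69.7 and 64.5 CPM after CNT-7 and 78.4, 91.9, 73.7 and 108 CPM after CNT-T. All CNT-7 rats lay below all CNT-T rats, although CNT-7 rat 10 and CNT-T rat 12 were close to each other. The means were 60.9 ± 8.15 and 88.1 ± 15.5 CPM (SD, n = 4). Odc1 was 1.45-fold lower after CNT-7 (95% interval 1.17 to 1.79), with a log2 fold change of -0.53 (SE 0.14) and an adjusted p-value of 0.0218 by edgeR. Leaving out each rat kept the log2 fold change between -0.61 and -0.42 and the adjusted p-value at 0.059 or less.

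Proliferation genes were given beside Odc1 because its product is needed by dividing cells. After CNT-7, 8 of 8 were called lower, beside 14% of all genes, with a median log2 fold change of -1.21. Top2a, a topoisomerase of dividing cells, fell by 1.68, Mki67, which encodes the Ki-67 antigen, by 1.64, the mitotic kinase gene Cdk1 by 1.40 and the replication licensing gene Mcm5 by 1.25 on the log2 scale. The log2 fold change of Odc1 was closer to 0 than that of each of these genes. Whether these falls are related was not tested.

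The aminopropyl transferases that lengthen putrescine were Srm and Sms. Sms (ENSRNOG00000007688), spermine synthase, had 14.5, 12.6, 12.8 and 15.3 CPM after CNT-7 and 14.1, 15.1, 16.3 and 16.1 CPM after CNT-T. The groups overlapped, with means of 13.8 ± 1.31 and 15.4 ± 0.989 CPM and a log2 fold change of -0.16 (95% interval -0.38 to 0.06, adjusted p = 0.285 by edgeR).

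Srm (ENSRNOG00000046379), spermidine synthase, was the most variable of the 8 genes. It had 1.05, 5.19, 8.85 and 8.36 CPM after CNT-7 and 0.522, 0.975, 16.6 and 3.04 CPM after CNT-T, from 32, 155, 245 and 231 counts and from 16, 33, 504 and 85 counts. The lowest and the highest rat were both CNT-T rats, and within that group alone the levels differed by a factor of 31.9. The log2 fold change was 0.15 (95% interval -2.0 to 2.29, adjusted p = 0.934 by edgeR), an interval too wide to tell whether the particles differed. Leaving out 1 rat moved it from -0.24 to 1.96, and the highest of these values, without CNT-T rat 12, had an adjusted p-value of 0.13. The pooled SD of log2 CPM within groups was 1.77 for Srm. Of 2015 genes with a mean CPM within 2-fold of that of Srm, 11 had a larger SD, and their median was 0.234.

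The levels of Srm were ordered by the range of the rat numbers. Within each particle, both rats numbered over 9 exceeded both rats numbered under 6. With this range as a term in the fit, the higher numbers had a log2 fold change of 2.48 over the lower ones (SE 0.73) for Srm, with an unadjusted p of 0.0087 and an adjusted p of 0.821 by edgeR. Arg1 had 1.59 for the same term, with an unadjusted p of 0.0083 and an adjusted p of 0.821 by edgeR. With the range in the fit, the difference of Arg1 between particles was 2.94 on the log2 scale (adjusted p = 0.0041). By edgeR 0 genes were called for the range, and 681 of 12124 genes (5.62%) had an unadjusted p under 0.05. The labels do not say what the numbers stand for. Exosc10, which lies beside Srm in the RefSeq annotation of assembly GRCr8 and was chosen after values were seen, kept to 54.2 to 72.1 CPM over all 8 rats.

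**Figure D2:**
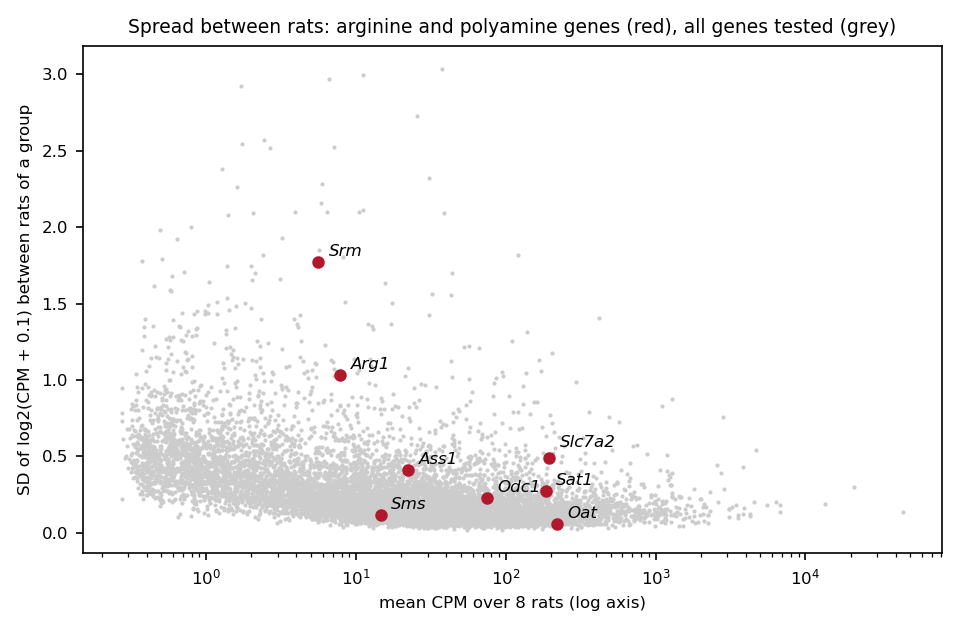
Pooled SD of log2(CPM + 0.1) between rats of a group (vertical axis) against the mean CPM over 8 rats (horizontal axis, log scale), for all 12124 genes tested in grey and the 8 arginine and polyamine genes in red. Srm (SD 1.77), Arg1 (1.03) and Slc7a2 (0.492) lie in the upper part of the cloud at their level, and Oat (0.0572) at its lower edge.

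The spread between rats was itself uneven over the pathway. Among genes of like level, 98.5% had a smaller SD than Arg1 (1.03), 97.2% than Slc7a2 (0.492), 94.3% than Ass1 (0.410), 90.3% than Sat1 (0.272) and 86.2% than Odc1 (0.224). Sms (0.116) and Oat (0.0572) were at the other end, with 21.6% and 4.81% of such genes below them.

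Upstream sequence is shown for 2 of these genes, Odc1 as the synthesis gene that was called and Srm as the gene that varied most between rats. It was taken from the RefSeq promoter table of assembly GRCr8, which held 6 of the 10 genes (Ass1, Oat, Odc1, Srm, Sms and Sat1). Both lines give the 250 bases before the annotated start, on the plus strand, 5′ to 3′. For Odc1 (chr6:46058415-46058664) the capitals mark GC boxes, the letters GGGCGG on either strand, to which Sp1 family factors are known to bind. For Srm (chr5:164308752-164309001) they mark an E-box, the palindrome CACGTG, to which Myc with its partner Max is known to bind.
Odc1: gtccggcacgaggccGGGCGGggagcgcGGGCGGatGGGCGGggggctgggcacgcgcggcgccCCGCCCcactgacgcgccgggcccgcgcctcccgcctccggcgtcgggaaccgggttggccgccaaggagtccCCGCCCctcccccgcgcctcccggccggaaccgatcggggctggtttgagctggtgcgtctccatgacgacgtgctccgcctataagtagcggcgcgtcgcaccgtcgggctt
Srm: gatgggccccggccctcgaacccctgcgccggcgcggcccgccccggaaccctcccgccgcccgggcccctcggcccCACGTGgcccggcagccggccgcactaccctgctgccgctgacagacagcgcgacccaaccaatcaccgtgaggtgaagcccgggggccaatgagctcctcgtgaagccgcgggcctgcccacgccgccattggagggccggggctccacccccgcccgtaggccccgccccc
The Odc1 stretch held 5 GC boxes and 0 E-boxes, and the Srm stretch 1 E-box and 4 GC boxes. Of 33469 promoter windows of 300 bases in the table, 6.42% held CACGTG, 33.1% held GGGCGG and 4.64% held 4 or more copies of the latter. These windows add the 50 bases after the start, and on that length Odc1 and Srm each held 5 GC boxes. These are matches of letters, and binding was not measured. Myc, chosen after its values were seen, had 101 ± 18.8 CPM after CNT-7 and 102 ± 9.81 after CNT-T (log2 fold change -0.01, 95% interval -0.30 to 0.28, adjusted p = 0.972 by edgeR).

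Sat1 (ENSRNOG00000003809) encodes spermidine/spermine acetyltransferase, the enzyme that marks polyamines for breakdown and export. It had 201, 205, 217 and 213 CPM after CNT-7 and 119, 141, 155 and 222 CPM after CNT-T. The CNT-7 rats were nearly equal, and 3 of the 4 CNT-T rats lay below them, whereas CNT-T rat 13 was the highest of all 8. The means were 209 ± 7.23 and 159 ± 44.6 CPM, and the log2 fold change was 0.39 (95% interval 0.02 to 0.76) with an adjusted p-value of 0.127 by edgeR, which does not pass the threshold. The call turned on CNT-T rat 13 and on the method. Without that rat the log2 fold change of Sat1 was 0.60 (adjusted p = 0.0058), with DESeq2 it was 0.39 (adjusted p = 0.0755), and with the range of the rat numbers in the fit 0.42 (adjusted p = 0.0662).

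Sat1 and Odc1 stand at opposite ends of the polyamine cycle, and their ratio within a rat needs no scaling between libraries. There were 3.43, 4.05, 3.12 and 3.30 Sat1 counts per Odc1 count in CNT-7 rats 3, 5, 10 and 11, and 1.52, 1.53, 2.10 and 2.05 in CNT-T rats 1, 2, 12 and 13. The groups were apart, and the highest CNT-T rat stayed below the lowest CNT-7 rat. CNT-T rat 13, which was highest in Sat1, was also highest in Odc1, so that its ratio was like that of rat 12. The mean ratio was 3.47 ± 0.404 after CNT-7 and 1.80 ± 0.322 after CNT-T (SD, n = 4). The log2 difference was 0.96, a 1.94-fold difference, with p = 0.0286 by a two-sided exact permutation test with all 70 ways to divide the 8 rats, which is the smallest p-value that this design can give. The log2 difference was 1.29 between the rats numbered under 6 and 0.63 between those over 9. Each range held 2 rats of each particle. Since the groups were apart, the ratio had to be higher after CNT-7 in both ranges, which adds no support. Different genes differ in length, so that the ratio compares rats and does not say which transcript was the more abundant.

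**Figure D3:**
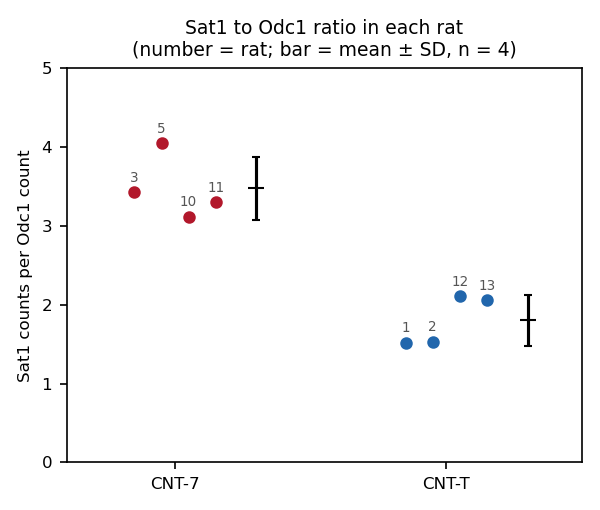
Sat1 counts per Odc1 count in each rat (vertical axis, linear, from 0), by particle. Each point is 1 rat with its number, and the bar is the mean ± SD of 4 rats. CNT-7 rats lie between 3.12 and 4.05 and CNT-T rats between 1.52 and 2.10.

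The neighbouring steps of the pathway were read from 53 further genes. Of these, 51 had a row, 42 were tested and 12 were called (28.6%, beside 27.9% of all genes). Higher after CNT-7 were 7 genes and lower 5, beside 13.9% and 14% of all genes. The groups did not overlap in 11 of the 42, beside 24.9% of all genes. The median log2 fold change was 0.02, close to the 0.01 of all genes. As a whole the list was thus called at about the rate of all genes tested, and the calls were scattered over its branches.

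**Figure D4:**
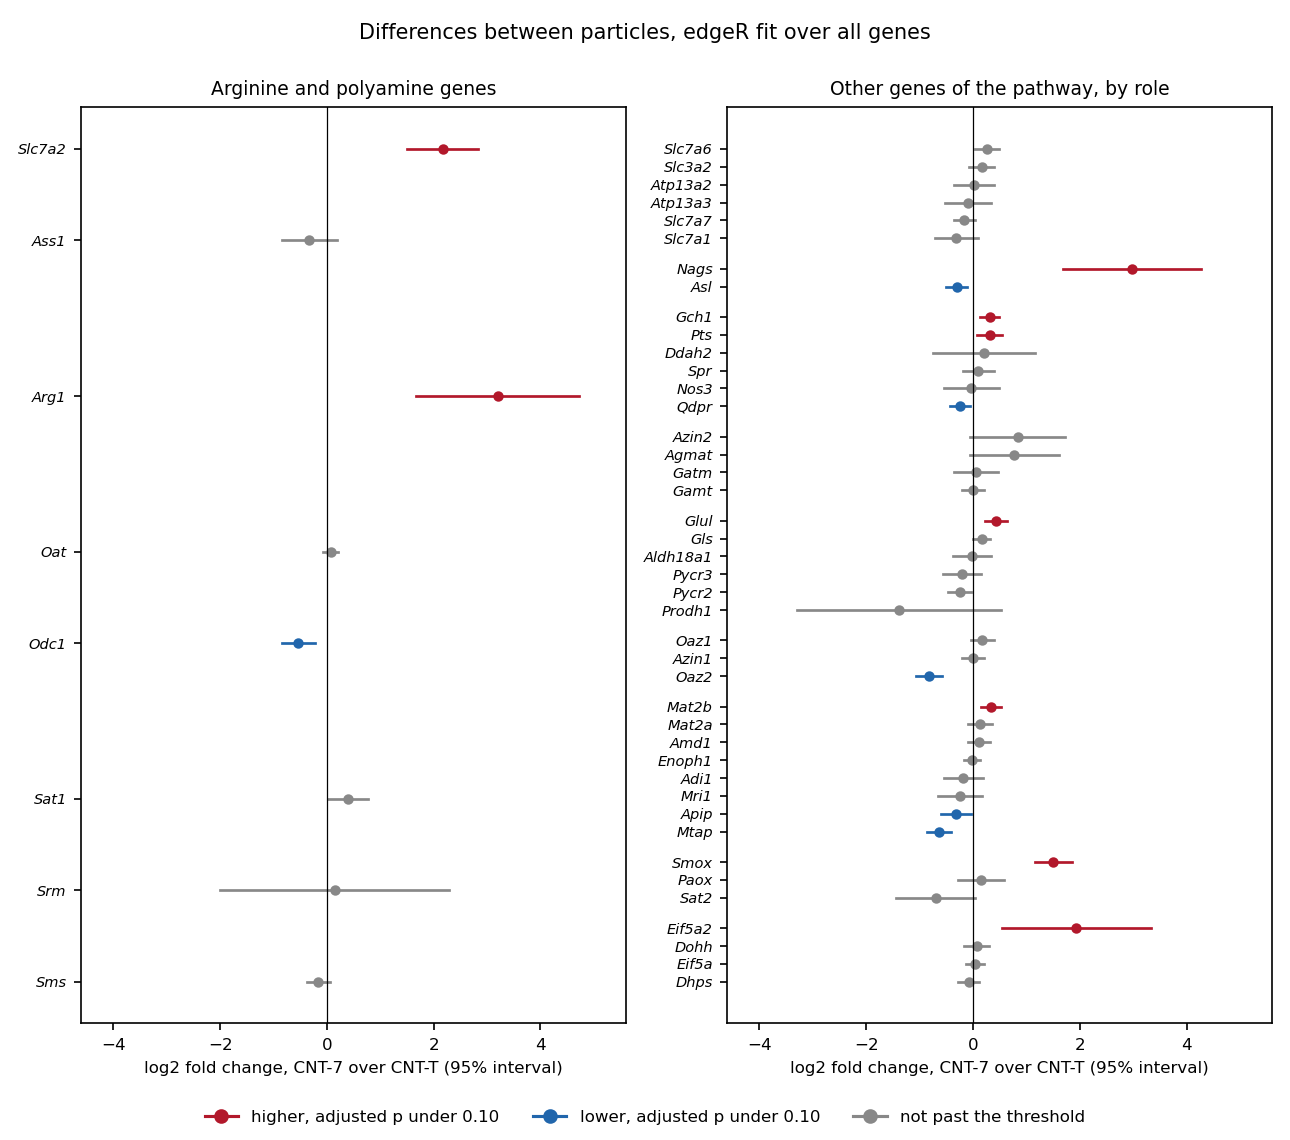
Log2 fold change between particles, positive where CNT-7 was higher, with its 95% interval (horizontal axes) from the edgeR fit over all genes, for the 8 arginine and polyamine genes (left) and the 42 other genes tested, grouped by role (right). Red is higher and blue lower at an adjusted p-value under 0.10, and grey did not pass. Arg1 (3.20) and Slc7a2 (2.17) lie farthest to the right on the left side, Smox (1.5) rose, and Oaz2 (-0.83) and Mtap (-0.64) fell on the right side.

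Polyamine breakdown held the call with the smallest adjusted p-value among the further genes. Smox, spermine oxidase, turns spermine back into spermidine and releases hydrogen peroxide. It had 24.3, 29.3, 30.0 and 22.2 CPM after CNT-7 and 11.5, 7.57, 9.99 and 8.27 CPM after CNT-T. Every CNT-7 rat was well above every CNT-T rat, and the difference was 2.83-fold, with a log2 fold change of 1.5 (SE 0.15, adjusted p = 0.000366 by edgeR). The other 2 genes tested in this step, Paox and Sat2, were not called. Paox, the oxidase that acts on the product of Sat1 and was chosen after its values were seen, had a log2 fold change of 0.15 (95% interval -0.28 to 0.58, adjusted p = 0.632).

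Control of ornithine decarboxylase lies with the antizymes, small proteins that bind it and send it to degradation, and with an inhibitor of the antizymes. Oaz2, antizyme 2, had 46.4, 49.3, 37.2 and 39.6 CPM after CNT-7 and 67.7, 76.9, 85.4 and 76.3 CPM after CNT-T. It was lower in all CNT-7 rats, by 1.77-fold, with a log2 fold change of -0.83 (SE 0.11, adjusted p = 0.00098 by edgeR). Odc1 and this antizyme gene were therefore both lower after CNT-7. Oaz1, antizyme 1, had 346 ± 28.5 and 306 ± 30.9 CPM (log2 fold change 0.18, 95% interval -0.03 to 0.38, adjusted p = 0.222). Azin1, the antizyme inhibitor, had 116 ± 4.31 and 116 ± 15.6 CPM, with an interval of -0.21 to 0.21 around a log2 fold change of -0.00 (adjusted p = 0.991).

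S-adenosylmethionine supplies the aminopropyl groups for Srm and Sms, and a salvage route takes back the methylthioadenosine that they release. Of 8 genes tested there, 3 were called (37.5%, beside 27.9% of all genes). Mtap, the phosphorylase that begins the salvage, fell from 86.1 ± 10.7 to 55.4 ± 4.83 CPM (log2 fold change -0.64, SE 0.10, adjusted p = 0.00263 by edgeR), without overlap between the rats. Mat2b, the regulatory subunit of methionine adenosyltransferase, rose from 43.3 ± 2.29 to 54.8 ± 5.79 CPM (log2 fold change 0.34, adjusted p = 0.0198). Apip, a later enzyme of the salvage, was called lower close to the threshold (log2 fold change -0.32, adjusted p = 0.0997 by edgeR). Apip lost the call in most of the other fits, so that the count of 3 calls here rests in part on a weak one. Amd1, which makes the decarboxylated donor, had 90.1 ± 9.07 and 82.9 ± 7.12 CPM (log2 fold change 0.12, 95% interval -0.09 to 0.33, adjusted p = 0.41).

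Nitric oxide synthase needs tetrahydrobiopterin. Of 6 tested genes of nitric oxide synthesis and of this cofactor, 3 were called (50%, beside 27.9% of all genes). Gch1, the first enzyme of cofactor synthesis, rose from 31.7 ± 1.92 to 39.3 ± 3.15 CPM (log2 fold change 0.31, SE 0.08, adjusted p = 0.0224 by edgeR), without overlap. Pts, the next enzyme, rose from 11.6 ± 1.36 to 14.4 ± 0.879 CPM (log2 fold change 0.31, adjusted p = 0.0716). Qdpr, which regenerates the cofactor, fell from 68.9 ± 6.95 to 58.3 ± 3.82 CPM (log2 fold change -0.24, adjusted p = 0.0787), and its rats overlapped. The calls of Pts and Qdpr were lost in several fits that left out 1 rat.

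**Figure D5:**
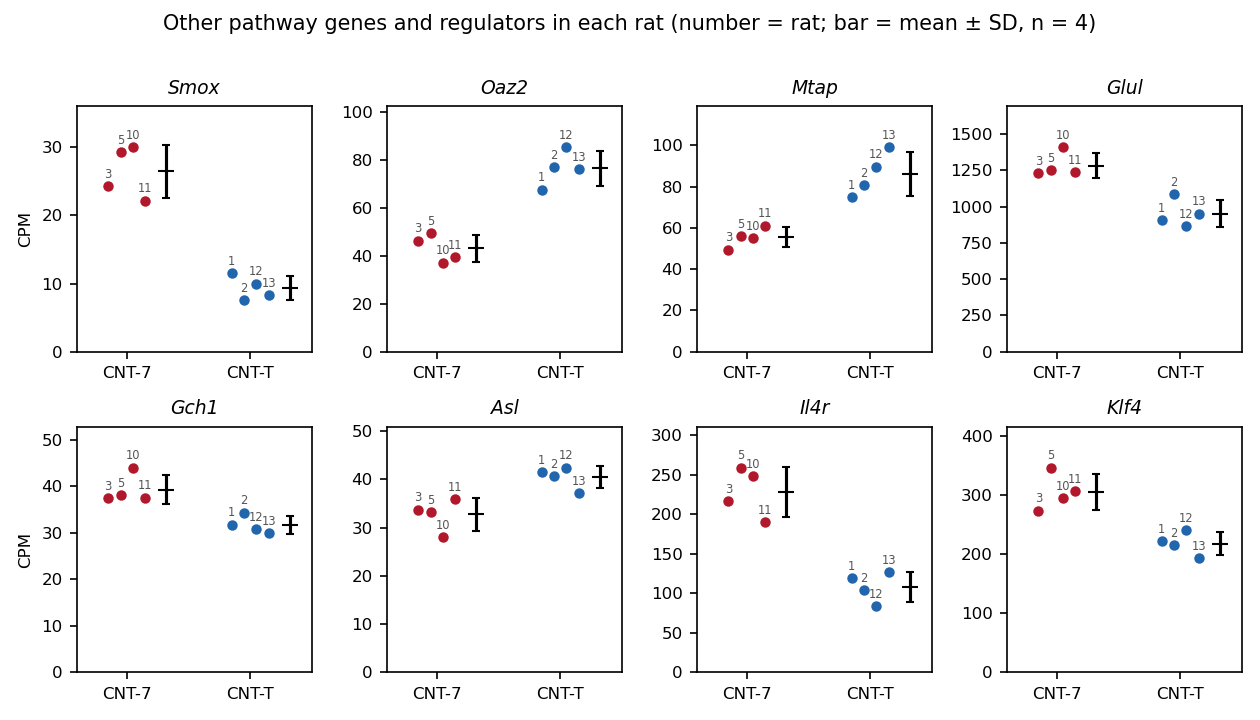
CPM (vertical axes, linear, from 0) of 6 further pathway genes and 2 regulators, by particle. Each point is 1 rat with its number, and the bar is the mean ± SD of 4 rats. Smox, Glul, Gch1, Il4r and Klf4 lie higher and Oaz2, Mtap and Asl lower after CNT-7, with no overlap between the groups.

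The remaining roles each held few tested genes, too few to set their calls apart from the 27.9% of all genes. Hypusine formation had 25% of its genes called. Both tested genes of the urea cycle and citrulline recycling, Nags and Asl, were called. Of 4 genes tested in the creatine and agmatine branch, which also starts from arginine, 0 were called by edgeR or by DESeq2, with 0 at an unadjusted p under 0.05, and Gatm, its first enzyme on the creatine side, had a log2 fold change of 0.05 (adjusted p = 0.877 by edgeR). Of 4 genes of hypusine formation, the modification of the translation factor eIF5A that uses spermidine, only Eif5a2 was called (log2 fold change 1.94, adjusted p = 0.0537), a call lost in 4 of the 8 fits that left out 1 rat, while the log2 fold change was 3.04 without CNT-T rat 13. Eif5a2 had 0.503 to 0.624 CPM after CNT-7 and 0.0296 to 0.394 CPM after CNT-T, with 2 CNT-T rats below the floor of 3 counts. Eif5a itself had 489 ± 27 and 479 ± 30.7 CPM (log2 fold change 0.03, adjusted p = 0.825). Nags, which makes the activator of the hepatic urea cycle, was called higher at 0.471 to 0.905 CPM against 0.0326 to 0.236 CPM. In 3 of the 4 CNT-T rats Nags was below the floor of 3 counts, and its fitted fold change of 2.98 on the log2 scale (4.25 without CNT-T rat 2) depends on the prior count. In the proline branch Prodh1, proline dehydrogenase, spanned 1.41 to 29.3 CPM after CNT-7 and 8.11 to 40.4 CPM after CNT-T (log2 fold change -1.39, 95% interval -3.31 to 0.53, adjusted p = 0.296). Without CNT-7 rat 5 the log2 fold change of Prodh1 was -3.06 (adjusted p = 0.0155), past the threshold. Gatm, Eif5a, Eif5a2, Nags and Prodh1 were chosen after their values were seen.

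Regulators known to act on the arginase, nitric oxide synthase or ornithine decarboxylase genes were read from a list of 12 genes, all tested. Of these, 2 were called (16.7%, beside 27.9% of all genes), both higher after CNT-7. Il4r, the receptor chain for interleukin 4, through which Arg1 is induced in rodent macrophages, had 217, 259, 248 and 190 CPM after CNT-7 and 119, 104, 84.1 and 127 CPM after CNT-T. Its rats did not overlap, and the log2 fold change was 1.07 (SE 0.14, adjusted p = 0.00111 by edgeR). Klf4, a transcription factor of myeloid cells, rose from 218 ± 19.8 to 305 ± 30.4 CPM (log2 fold change 0.49, adjusted p = 0.00674). Stat6, the factor that acts below the receptor and was chosen after its values were seen, had 202 ± 8.98 and 179 ± 14.6 CPM (log2 fold change 0.17, adjusted p = 0.151).

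Since arginase and nitric oxide synthase are used to sort macrophage activation, the lists of both states were set beside Arg1. Of 7 tested genes of alternative activation, 4 were called higher and 0 lower after CNT-7, beside 13.9% and 14% of all genes. They were the chemokine genes Ccl22 (log2 fold change 5.67, adjusted p = 0.00335 by edgeR) and Ccl17 (3.52, adjusted p = 0.00152), the transglutaminase gene Tgm2 (4.08, adjusted p = 0.000723) and the lectin gene Clec10a (0.85, adjusted p = 0.00723). Ccl22 had no count in 2 of the CNT-T rats, so that its fitted fold change depends on the prior count. The mannose receptor gene Mrc1, chosen after its values were seen, was not called (0.58, adjusted p = 0.203), and Retnla, also chosen so, had too few counts to be tested. Of 6 tested genes of classical activation, 1 was called higher and 2 lower (50% called, beside 27.9% of all genes). Il1b, an inflammatory cytokine gene chosen after its values were seen, rose at low counts (2.61, adjusted p = 0.00198), while the chemokine gene Cxcl9 (-1.96, adjusted p = 0.0279) and the costimulatory gene Cd86 (-0.57, adjusted p = 0.0212) fell.

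Markers of each of the other cell types listed here summed to at most 68.5 CPM in any rat. No list of monocyte or dendritic cell markers was read, so these cells were not checked. Summed neutrophil markers had 33.9 to 63.0 CPM after CNT-7 and 26.2 to 68.5 CPM after CNT-T, with Mpo at 0 in all rats. Of the 9 neutrophil markers, 5 were tested and 1, S100a8, was called, where 27.9% of all genes were called. Eosinophil markers summed to 0.181 to 9.33 CPM against 0.107 to 0.359 CPM, with Epx at 0 and CNT-7 rat 3 highest. The 4 fibroblast markers summed to 0.397 to 1.24 CPM against 0 to 0.363 CPM and did not overlap. Mast cell markers (0.558 to 1.56 against 0.0296 to 2.14 CPM), mesothelial markers (0.253 to 0.838 against 0.179 to 0.396 CPM, with Wt1 and Upk3b at 0), B cell markers (0.164 to 2.65 against 0.148 to 0.456 CPM) and T and NK cell markers (0.690 to 4.62 against 0.0716 to 0.692 CPM) overlapped. Within the macrophage list, 5 of 7 genes were called, Cd14 and Gata6 higher and Csf1r, Cd68 and Adgre1 lower after CNT-7. The part of these markers in the differences of Arg1, Slc7a2 and Odc1 was not tested.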

How the data were processed

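RNA of sorted peritoneal macrophages from 8 rats was sequenced as stranded mRNA libraries. The authors ran the ARMOR workflow: reads were checked with FastQC and quantified with Salmon on the Ensembl rat cDNA of Rnor_6.0, and estimates were imported with tximeta. The deposited table holds estimated counts that the authors summed per gene and did not normalize, as whole numbers. Salmon's version is not given in the sources used here. Such estimates share out reads that fit several transcripts. Columns left unused numbered 0.

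edgeR 4.0.16 (R 4.3.3) tested CNT-7 against CNT-T over all genes with the quasi-likelihood test, TMM factors, filterByExpr (minimum count 10, minimum total 15) and p-values adjusted after Benjamini-Hochberg. The call threshold was an adjusted p of 0.10, the study's level. A positive log2 fold change means higher after CNT-7. Levels are in CPM and were not compared between genes, since no lengths were used. The Sat1 to Odc1 ratio used 0.5 as pseudocount. Floors of 3 counts and intervals of 95% cover counting error or the spread of these rats only, and reads carried no molecular identifiers. GC boxes and E-boxes were searched on both strands in 250 bases before and 50 after each start.

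The genes and lists were chosen with earlier results of these data known. Values are given for the 9 genes of the list with a row and, of each other list, for the called genes with a mean of at least 1 CPM by absolute log2 fold change (at most 12 pathway genes and at most 4 of each other list), plus Oaz1, Azin1, Amd1, Smox, Asl, Slc7a1 and Gch1. Genes outside this rule are marked in the text as picked with their values known. A planned Arg1 to Nos2 ratio was not made. On simulated counts of 12021 genes with 200 changed, edgeR recovered 89% of changes of size 1 on the log2 scale and 99% of size 2. Of its 208 calls 9.62% were false, and of 235 calls by DESeq2 19.6% were false. The changes were placed only in genes above a minimum mean count. DESeq2 1.42.0, upper-quartile factors, other filters and thresholds, rat numbers under 6 against over 9 as a term, and fits without each single rat were alternatives. The range as a term in its own right and the ratio without pseudocount were added after seeing the data.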

Additional observations from a re-analysis of the deposited data

Results flagged for a closer look

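A sample was looked for that stood far from the other 3 of its group, by Dixon's ratio (its gap to the nearest of the others divided by the range of the group), in 96 groups of 4 rats. The groups were those of each tested gene with a value in the text, apart from cell type markers, and of the Sat1 to Odc1 ratio. Above the critical value at the 95% level were 6, where chance would give about 4.8 of 96, or 1 in 20. The groups included genes chosen after their values were seen, among them Nags, Prodh1 and Slc3a2. The count can therefore not be judged against that rate.

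Srm was far higher in CNT-T rat 12 than in the other CNT-T rats, with a ratio of 0.843 (16.6 CPM against 0.522 to 3.04 CPM). Glul was higher in CNT-7 rat 10, with a ratio of 0.893 (1410 CPM against 1232 to 1251 CPM). Gch1 was higher in the same rat, with a ratio of 0.911 (44.0 CPM against 37.5 to 38.1 CPM). Slc3a2 was higher in that rat too, with a ratio of 0.842 (270.6 CPM against 223 to 231 CPM). Prodh1 was higher in CNT-7 rat 5, with a ratio of 0.908 (29.3 CPM against 1.41 to 3.97 CPM), and Nags in CNT-T rat 2, with a ratio of 0.984 (0.236 CPM against 0.0326 to 0.0358 CPM, which are below the floor of 3 counts). CNT-7 rat 10 was also the rat with the most Arg1 and Slc7a2, at 34.5 and 456 CPM, neither of which passed the critical value.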

How the results depend on the processing

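Over the 8 arginine and polyamine genes tested, 38 of 40 fits under other settings and 58 of 64 fits without 1 rat kept the direction and the call. Sat1 was the exception in 3 fits, where it passed the threshold. Srm was the exception in 5, where its log2 fold change turned to between -0.24 and -0.04: -0.12 and -0.07 without CNT-7 rats 10 and 11, and -0.24, -0.20 and -0.04 without CNT-T rats 1, 2 and 13. It had been 0.15, and rose to 1.96 without CNT-T rat 12. DESeq2 and the range term took the genes called higher from 2 to 3, and the genes called lower stayed at 1 throughout. Without 1 rat these counts were 2 to 3 and 1 to 1. Azin1, whose log2 fold change was -0.0018, turned to 0.000896 with at least 10 counts in every rat, to 0.0018 with the range term, and to 0.0127, 0.011 and 0.0953 without CNT-7 rats 3 and 5 and CNT-T rat 13 (lowest -0.0512). Apip, Pts and Qdpr lost their calls in 16 of the fits without 1 rat, and Apip and Pts in 4 others. Oaz1 passed the threshold without CNT-T rat 1 (adjusted p = 0.0885 by edgeR). Of the genes named after their values were seen, Eif5a2 lost its call in 4 fits without 1 rat, and Prodh1, Stat6 and Mrc1 each passed in 1. Without 1 rat, log2 fold changes near 0 changed sign for Eif5a (-0.00218 to 0.0736), Myc (-0.123 to 0.0775) and Gatm (-0.068 to 0.179), in 7 fits. Pathway genes called lower fell from 5 to 3 at an adjusted p-value under 0.05, and without 1 rat were 3 to 5, with 3 without CNT-T rat 2 and without CNT-T rat 12. Regulators called higher were 2, and 2 to 4 without 1 rat (4 without CNT-T rat 1). Activation genes called higher fell from 5 to 3 with at least 10 counts in every rat, where fewer genes were tested. The log2 difference of the Sat1 to Odc1 ratio was 0.88 to 1.04 without 1 rat, 1.29 in rats numbered under 6 and 0.63 in rats over 9. Apart from that filter, the cause was not tested. Over all genes, 3123 to 3633 were called under the other filters, scalings and tools. Without 1 rat they were 2578 (without CNT-T rat 12) to 3515 (without CNT-7 rat 11). No paired analysis was possible because the rat numbers of the groups are all different. The Arg1 to Nos2 ratio was not run, since Nos2 was not analysed here.

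With 4 rats a group, a log2 difference of 1 was recovered less often in simulation than one of 2, and for Srm the interval spans both directions. Genes below 3 counts, such as Arg2, cannot be compared.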
